A study of Canis lupus familiaris with 24 samples.

Results

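Each value in the following is a difference of differences: the injury effect in the dependent parts of the lung minus the injury effect in the nondependent parts. Within each dog, the log2 signal of the control lung was taken from that of the injured lung at the base and at the apex, the results were averaged over these sites for the dependent position and for the nondependent position, and the nondependent average was taken from the dependent one. All 24 of the 24 arrays enter it, and it gives 3 values per probe set, 1 per dog. A value above 0 says that the difference between injured and control lung was larger (or less negative) in the dependent parts, and a value below 0 that it was smaller (or more negative) there.

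The 3 animals were mongrel dogs with a weight of 21.3 ± 1.5 kg, and the labels state no ages. In each dog the left lung was the injured one, washed out 4 times with saline at 20 ml/kg, and the right lung was the control. The lungs were ventilated independently at 25 breaths/min for 5 h, and positive end-expiratory pressure (PEEP) of 5 cmH2O was given to the control lung, so that lavage, side and PEEP differ together and "injured" stands for all of them. Both lungs of every dog shared pentobarbital anaesthesia and muscle relaxation with pancuronium. The 8 groups were the injured dependent base, injured dependent apex, injured nondependent base and injured nondependent apex, and the same 4 sites of the control lung, with 3 pieces each, 1 per dog. A mid-base site that the labels mention was not analysed here.

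As background, dependent lung lies lowest under gravity and carries the weight of the tissue above it. Surfactant is the lipid and protein film that lowers surface tension in the alveoli. When it is washed out, dependent alveoli tend to collapse or flood at the end of a breath, and PEEP holds them open. Nondependent alveoli stay aerated and take more of each breath, with more stretch of their walls, and blood flow tends to favour the dependent lung.

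The arrays were Affymetrix arrays designed for human genes, whose probes match dog RNA unevenly, and no gene's level was set against that of another. The pieces are whole lung tissue, in which fewer cells of a type and less RNA per cell cannot be told apart. Of the 22283 probe sets, 20034 had a Present call on 6 or more arrays and were tested, and 60.78 to 82.32% of probe sets were Present on an array. Of the defining markers of lung tissue, 6 of 9 of alveolar type 2 cells, 7 of 8 of type 1 cells and 8 of 8 of endothelium were tested. Among the tested ones, 6 of 6 of type 2 cells, 6 of 7 of type 1 cells and 7 of 8 of endothelium were Present on at least 12 arrays. Apart from the others stood 3 arrays, those of the injured dependent base, dependent apex and nondependent apex of dog 3, with highest signals of 26350, 27749 and 22155 against at most 20465 on the other 21. The values that moved most without these arrays are given so as well. Both injured dependent pieces of dog 3 are among them, so without them dog 3 gives no value of the contrast. The injured dependent groups then rest on dogs 1 and 2. The pieces of a dog share that dog, so that each comparison below has 3 replicates.

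No probe set passed in this contrast. By limma with Benjamini-Hochberg adjustment over all 20034, 0 were called (0%) at an adjusted p of 0.05, and the smallest adjusted p was 0.8507. That smallest value depended on the fit: by limma on the 3 values per dog alone it was 0.06315, and without dog 3 it was 0.3476. In both of these 0 were called. At an unadjusted p under 0.05 there were 1088 probe sets (5.43%), 696 above 0 and 392 below. No direction is therefore claimed for any gene below, and the values are given as measured. The precision sets what could have been seen: the median standard error was 0.36 on the log2 scale, and the median 95% interval reached 0.76 to either side. For 8703 probe sets (43.4%) that interval lay inside -1 to 1, that is, within a factor of 2, and for 18317 (91.4%) inside -2 to 2. With 3 dogs, an exact sign-flip test of a single value cannot go below a two-sided p of 0.25.

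The dogs had little in common across genes. Over the 20034 probe sets, the values of dogs 1 and 2 correlated with r = 0.0189, those of dogs 1 and 3 with 0.0211 and those of dogs 2 and 3 with 0.118. These are descriptions across probe sets, which are not independent and share the arrays of each dog. The spread of the values over probe sets was similar in size in each dog, with SDs of 0.87, 0.70 and 0.77 in dogs 1, 2 and 3. Over 11226 genes, each taken by its brightest probe set, 1417 (12.6%) were below 0 in 3 of 3 dogs and 1896 (16.9%) above 0 in 3 of 3. The fitted value was below 0 for 5064 genes (45.1%).

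The value moved with the brightness of the probe set, read in 5 equal groups (quintiles) of probe sets by mean log2 signal. In the brightest quintile the median was -0.11 and 62.5% were below 0, while in the dimmest quintile the median was 0.22 and 35% were below 0. The share below 0 in 3 of 3 dogs was 24.6% in the brightest quintile and 6.39% in the dimmest. Dog 1 showed almost none of this, with medians of -0.02 in the brightest and 0.00 in the dimmest quintile, whereas dog 2 ran -0.14 in the brightest and 0.47 in the dimmest and dog 3 ran -0.18 and 0.19. After quantile normalization the medians were -0.04 in the brightest quintile and 0.08 in the dimmest. Lists of bright genes are set against this below, and the part of brightness in their values was not tested.

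**Figure D1:**
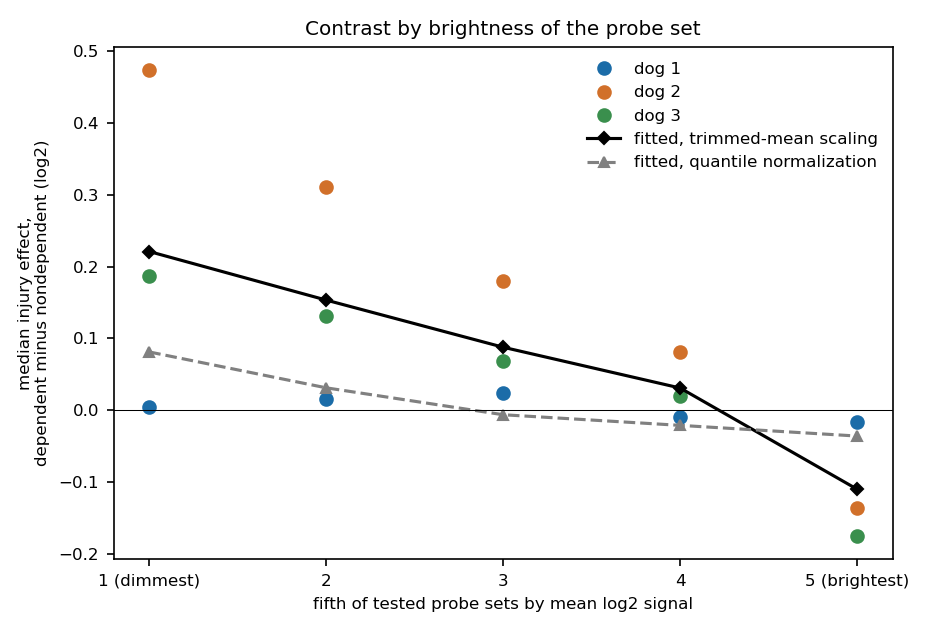
Median of the injury effect in dependent minus nondependent parts (log2, vertical axis) in 5 equal groups of probe sets ordered by mean log2 signal (horizontal axis), with coloured points for dogs 1 to 3, black diamonds for the fitted values under trimmed-mean scaling and grey triangles for those under quantile normalization. The black line runs down to -0.11 in the brightest quintile, and the grey line ends at -0.04.

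Several transcription factors that cells induce early after stretch, shear or injury stood below 0 in 3 of 3 dogs. KLF2, an endothelial factor induced by laminar flow that restrains inflammation, read 9.17, 8.99 and 8.29 (log2 signal in dogs 1, 2 and 3) at the injured dependent base, against 9.55, 10.00 and 9.60 at the control dependent base. At the apex it read 9.21, 8.89 and 8.47 in injured dependent pieces against 9.40, 9.96 and 9.79 in control dependent pieces. In all 6 of these pairs the injured piece was the lower. In nondependent pieces the pairs went both ways: KLF2 read 9.10, 9.98 and 9.15 at the injured base against 8.73, 9.28 and 9.57 at the control base, and 9.42, 9.28 and 8.78 at the injured apex against 9.03, 9.63 and 9.09 at the control apex. The contrast was -0.94 ± 0.27 (SE), with -0.67, -1.22 and -0.95 in dogs 1, 2 and 3 and a 95% interval of -1.51 to -0.37, but the limma adjusted p was 0.8507. It was -0.82 without the 3 arrays of dog 3 that stood apart.

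NR4A2, an orphan nuclear receptor of the immediate early class, had a different layout, with the higher readings in the injured nondependent lung. Averaged over base and apex, it read 7.33, 6.92 and 7.07 in the injured dependent parts against 7.24, 7.62 and 7.68 in the control dependent parts. In the nondependent parts it read 7.98, 9.09 and 8.30 in the injured lung against 6.59, 7.81 and 7.19 in the control lung. Injured minus control thus lay between -0.70 and 0.09 in dependent parts and between 1.11 and 1.39 in nondependent parts, with no overlap over 3 dogs. NR4A2, like HAS2, SGK1 and ID3 below, was named by its small p in this contrast. The gap between the ranges of such a gene is therefore a description, given without the share of all genes that have one. The limma adjusted p of NR4A2 was 0.8507. The contrast was -1.67 ± 0.53 (SE), a ratio of 3.17 between the nondependent and dependent fold changes, and 2 other probe sets of the gene gave -1.06 and -1.01.

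MYC, the growth-promoting transcription factor, stood at -1.73 ± 0.60 (SE), with -1.05, -1.57 and -2.56 in dogs 1, 2 and 3. At the injured nondependent base MYC read 11.73, 10.45 and 10.75, against 8.73, 5.77 and 8.60 at the control nondependent base, the widest pairs of any site in each dog. At the injured dependent base it read 10.99, 8.58 and 7.04, against 9.07, 7.05 and 8.87 at the control dependent base, where dog 3 was the lower in its injured lung and dogs 1 and 2 the higher. The MYC contrast was -2.74 at the base and -0.71 at the apex, and base minus apex was -2.02 ± 1.20 (SE) with a limma adjusted p of 0.9999. Without the 3 arrays of dog 3 it was -1.13, which is more than 1.5 times nearer 0. Its growth targets were read as a list: of 17 genes of that group 14 were below 0 and 3 in 3 of 3 dogs, with a median of -0.22. The targets included ODC1 of polyamine synthesis at -1.12 and the nucleolar protein NCL at -0.55.

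Of 32 immediate early and stretch-responsive factors tested, 0 passed, 20 were below 0 (62.5%, against 45.1% of all genes) and 12 were below 0 in 3 of 3 dogs (37.5%, against 12.6%). The unadjusted p was under 0.05 for 9 below 0 and 0 above 0, where 2.22% of all genes were such on the lower side and 3.08% on the higher. Those 9 were MYC, NR4A2, KLF2, the matrix signal CCN2 at -1.65, the AP-1 subunit FOS at -1.52, the growth-arrest gene GADD45A at -1.09 and its relative GADD45B at -0.76, KLF4 at -0.91 and IER5 at -0.69. JUNB, another AP-1 subunit, stood as low at -1.18 but was not among the 9, and was at -0.73 without the 3 arrays of dog 3. Some other members were nearer 0 or above it, such as EGR1 at -0.43, JUN at -0.26, ATF3 at -0.09, NR4A1 at 0.24, IER2 at 0.38 and FOSL1 at 0.46. The median of the group was -0.18, with -0.38, -0.67 and -0.02 in dogs 1, 2 and 3, against 0.04 for all genes. It was -0.10 after quantile normalization, and 17 of the 32 lay in the brightest quintile.

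**Figure D2:**
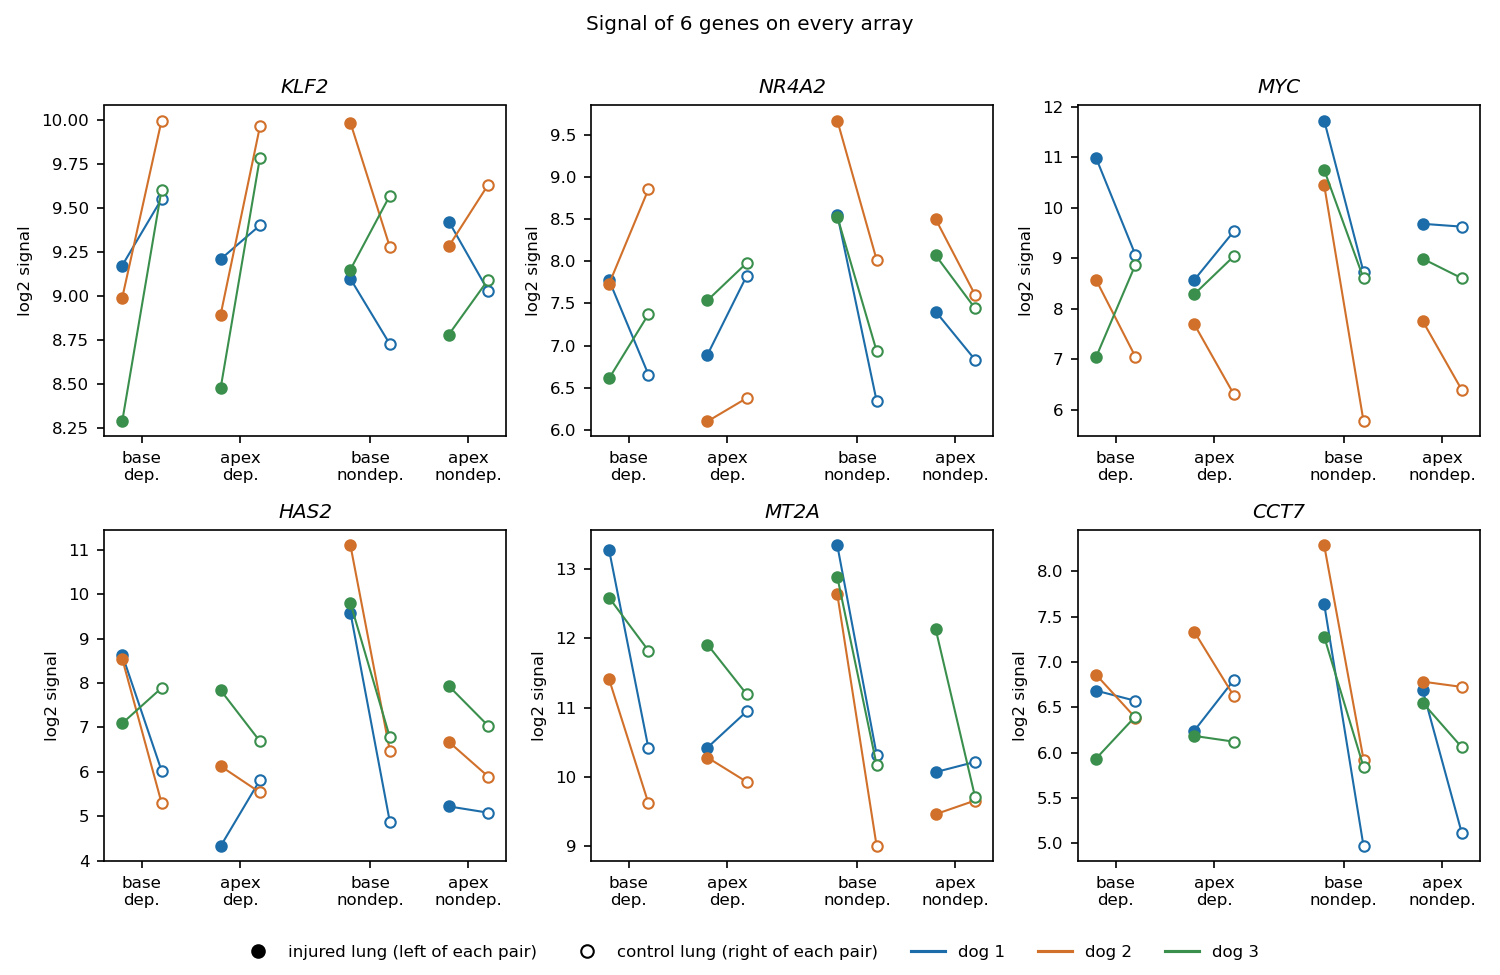
Log2 signal (vertical axes) of KLF2, NR4A2, MYC, HAS2, MT2A and CCT7 on each of the 24 arrays, by site (horizontal axes; dep., dependent; nondep., nondependent), with injured pieces as filled points on the left and control pieces as open points on the right of each pair, joined within a dog. KLF2 is lower in the injured piece of all 6 dependent pairs, and for HAS2 the 3 injured pieces of the nondependent base, at 9.58, 11.09 and 9.80, are the highest of each dog.

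HAS2, the enzyme that makes hyaluronan in the lung interstitium, stood at -1.47 ± 0.66 (SE), with -1.86, -0.78 and -1.78 in dogs 1, 2 and 3. At the injured nondependent base HAS2 read 9.58, 11.09 and 9.80, against 4.88, 6.48 and 6.78 at the control nondependent base. At the injured dependent base it read 8.64, 8.55 and 7.09, against 6.03, 5.30 and 7.89 at the control dependent base. Injured minus control was above 0 in 3 of 3 dogs in both positions, at 0.56, 1.92 and 0.18 in dependent parts and 2.42, 2.70 and 1.95 in nondependent parts, and these ranges did not overlap. The contrast was -2.42 at the base and -0.52 at the apex, and base minus apex was -1.90 ± 1.33 (SE) with a limma adjusted p of 0.9999. Of the 14 genes of the hyaluronan and versican matrix 8 were below 0, and 1 of them, HAS2 itself, in 3 of 3 dogs, with VCAN, the versican core protein, at -0.32, its 4 other probe sets running from -0.73 to 0.42, and PTX3, a soluble pattern-recognition protein of that matrix, at 0.86.

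Metallothioneins are small cysteine-rich proteins that bind zinc and copper and rise with metal load, glucocorticoid and oxidative stress. MT2A read 11.85, 10.84 and 12.25 in injured dependent parts against 10.68, 9.77 and 11.51 in control dependent parts, and 11.70, 11.05 and 12.51 in injured nondependent parts against 10.27, 9.33 and 9.94 in control nondependent parts. The injured lung was thus at a similar level in both positions, 11.65 ± 0.72 in dependent and 11.75 ± 0.73 in nondependent parts (SD, n = 3 each), while in the control lung MT2A was higher in dependent parts, at 10.65 ± 0.87, than in nondependent parts, at 9.84 ± 0.48. Neither difference between positions passed by limma. The contrast for MT2A was -0.91 ± 0.44 (SE), with -0.27, -0.65 and -1.83 in dogs 1, 2 and 3, and -0.73 without the 3 arrays of dog 3. It ran from -1.24 to -0.46 over the alternatives tried, nearest 0 without dog 3.

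Of 8 metallothioneins tested, 0 passed, 7 were below 0 and 5 were so in 3 of 3 dogs: MT2A, MT1F at -0.84, MT1H at -0.69, MT1X at -0.57 and MT1E at -0.54. MT1G stood at -0.56, with dog 1 at 0.04, and MT4 at 0.06. The other probe sets of MT1G and MT1F had the opposite sign, at 0.67 and 0.09. The median of the group was -0.56, -0.38 after quantile normalization and -0.36 with means over all probe sets of a gene, with -0.23, -0.48 and -1.001 in dogs 1, 2 and 3. At the base it was -0.96 and at the apex -0.17. All 8 lie in the brightest quintile, and human probe sets of this family share sequence, so they are not independent readings. Among the related redox genes, GCLM, the modifier subunit of the enzyme that starts glutathione synthesis, stood on the other side at 1.81 ± 0.47 (SE), with 0.90, 2.46 and 2.08 in dogs 1, 2 and 3. Thioredoxins were below 0, the mitochondrial TXN2 at -0.96 and the cytosolic TXN at -0.93. Over 24 antioxidant genes 6 were below 0 in 3 of 3 dogs and 2 above, with a median of 0.05.

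CCT7, which had the smallest p among genes below 0, is a subunit of the ring-shaped chaperonin that folds actin and tubulin. CCT7 read 7.64, 8.28 and 7.28 at the injured nondependent base, against 4.97, 5.92 and 5.84 at the control nondependent base. At the dependent base it read 6.68, 6.86 and 5.93 in the injured lung and 6.57, 6.39 and 6.40 in the control lung, which overlap. The contrast for CCT7 was -1.38 ± 0.34 (SE), with -2.35, -0.62 and -1.16 in dogs 1, 2 and 3, and it ran from -1.76 to -0.89 over the alternatives. CCT7 was Present on 19 of 24 arrays, and dog 1 had the value furthest from 0. Of 7 subunits 6 were below 0 and 3 in 3 of 3 dogs, CCT7, CCT3 at -0.59 and CCT4 at -0.48, and CCT6A was above 0 at 0.08. The subunit median was -0.48, and -0.58 to -0.16 over the alternatives, nearest 0 without the 3 arrays of dog 3. At the base it was -0.67 and at the apex 0.05.

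The 24 genes with the smallest p, 12 in each direction with the same sign in 3 of 3 dogs and Present on at least 12 arrays, were chosen by this contrast, so their consistency over dogs is a description. Each had a limma adjusted p of 0.8507. Above 0, IMPA2, an inositol monophosphatase, was furthest at 1.99 ± 0.49 (SE), with 1.76, 2.10 and 2.09 in dogs 1, 2 and 3, although it was Present on 12 arrays only. IMPA2 was followed by GCLM, by STAP1, a signalling adaptor of blood cells, at 1.62, by the kinase STK32B at 1.59 and by the chromatin protein POGZ at 1.47. ODAD2, which docks the outer dynein arms of cilia, stood at 1.42, POMZP3 at 1.39, the phospholipase PLCB3 at 1.23 and PRTN3, a serine protease of neutrophil granules, at 1.20. FPGT of fucose salvage was at 1.08, the membrane protein ANO10 at 1.07 and MAGEC1, an antigen of testis and tumours, at 0.94.

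Below 0, beside KLF2, NR4A2, CCT7 and TXN2, stood ZCCHC14 at -1.78, which dog 1 leads with -3.89, CKLF, a chemokine-like factor, at -1.18, and POLG, the polymerase of mitochondrial DNA, at -1.17. B4GALT5 of glycolipid synthesis was at -1.07, LSM8, a core protein of the U6 splicing particle, at -0.92, UTP18 of ribosome assembly at -0.88, AQP3, a channel for water and glycerol, at -0.85, and the deubiquitinase JOSD1 at -0.79. The narrowest spread was that of POLG, with -1.19, -1.21 and -1.12 in dogs 1, 2 and 3. Other probe sets of a gene did not always share its sign: they stood above 0 for UTP18 (0.36), B4GALT5 (0.19), ZCCHC14 (0.06), both of POLG (0.03 and 0.56) and 1 of 2 of AQP3 (0.45). Of the 12 genes below 0, 5 were in the brightest quintile, and of the 12 above 0, none was, with 4 in the dimmest quintile. For KLF2 and ZCCHC14 injured minus control in dependent parts overlapped over dogs with that in nondependent parts. A gap between these ranges in others of the 24 is no separate result, since they were chosen by this same difference. The fitted value of none of the 24 changed sign under the alternatives run. For leaving out a dog this was fixed in advance, since the genes were chosen for the same sign in 3 of 3 dogs. Alternatives of the filter, the block or the intensity trend leave a fitted value as it is.

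**Figure D3:**
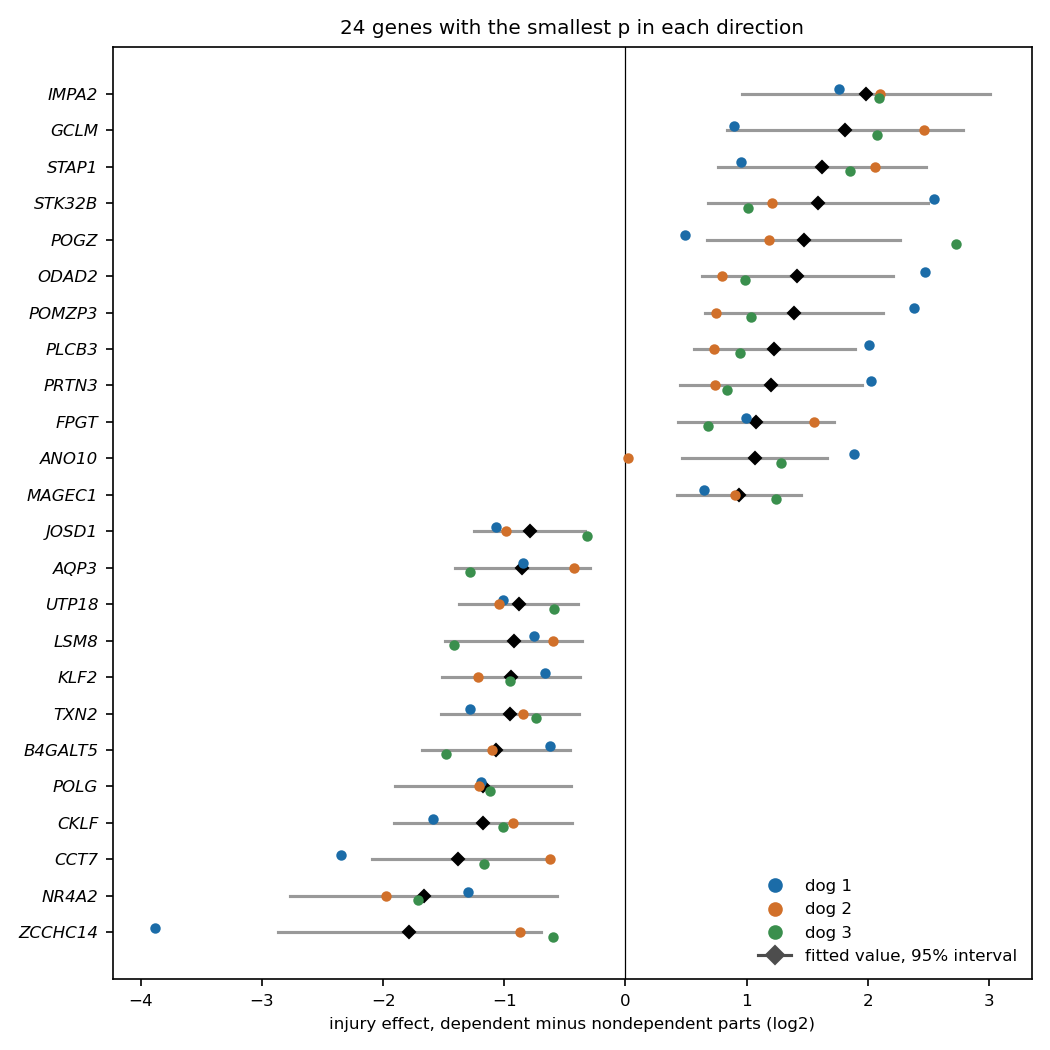
The 24 genes with the smallest p, 12 in each direction, ordered by value, with the injury effect in dependent minus nondependent parts on the horizontal axis (log2). Coloured points are dogs 1 to 3, diamonds the fitted values and bars their 95% intervals, which run from 0.96 to 3.01 for IMPA2 and from -2.87 to -0.70 for ZCCHC14, whose dog 1 stands alone at -3.89.

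Over 42 gene lists with 889 genes, list medians ran from -0.56 to 0.23, 20 below 0 and 22 above, and 0 genes passed. Beside those of metallothioneins and the chaperonin, 5 list medians were below -0.3: those of RNA-binding, translation, ribosomal, proteasome and BMP and TGF-beta genes. Of 36 RNA-binding and arginine-methylation genes 35 were below 0 and 21 in 3 of 3 dogs (58.3%), with a median of -0.41. Among them were the splicing factor SRSF3 at -0.99, HNRNPC, which packages nascent transcripts, at -0.79, and HNRNPF at -0.71. PRMT2, a methyltransferase, was the exception at 0.18. Of 49 cytosolic ribosomal proteins 44 were below 0 and 32 in 3 of 3 dogs (65.3%), with a median of -0.39 and RPL9 at -0.99 and RPS21 at -0.74.

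Of 30 translation factors 23 were below 0 and 17 in 3 of 3 dogs, with a median of -0.41, EIF3D of the initiation complex at -0.66 and the elongation factor EEF2 at -0.59. Of 33 proteasome subunits 30 were below 0, with a median of -0.35, and 9 in 3 of 3 dogs, and dog 1 had a median of 0.01 where dogs 2 and 3 had -0.30 and -0.36. The proteasome median was -0.56 at the base and -0.05 at the apex. Of 37 nuclear transport genes 29 were below 0 and 12 in 3 of 3 dogs, with a median of -0.26 and KPNA1, an importin, at -0.92, of whose 5 other probe sets 3 shared the sign and the highest stood at 0.17. These lists are bright: 43 of 49 ribosomal, 31 of 36 RNA-binding, 22 of 30 translation and 24 of 33 proteasome genes lay in the brightest quintile, where 24.6% of probe sets were below 0 in 3 of 3 dogs. After quantile normalization the medians were -0.12 for ribosomal, -0.23 for RNA-binding, -0.24 for translation, -0.27 for proteasome and -0.24 for nuclear transport genes. Under that scaling 32 of 49 ribosomal genes were below 0, against 49.9% of all genes and 54.3% of probe sets in the brightest quintile.

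**Figure D4:**
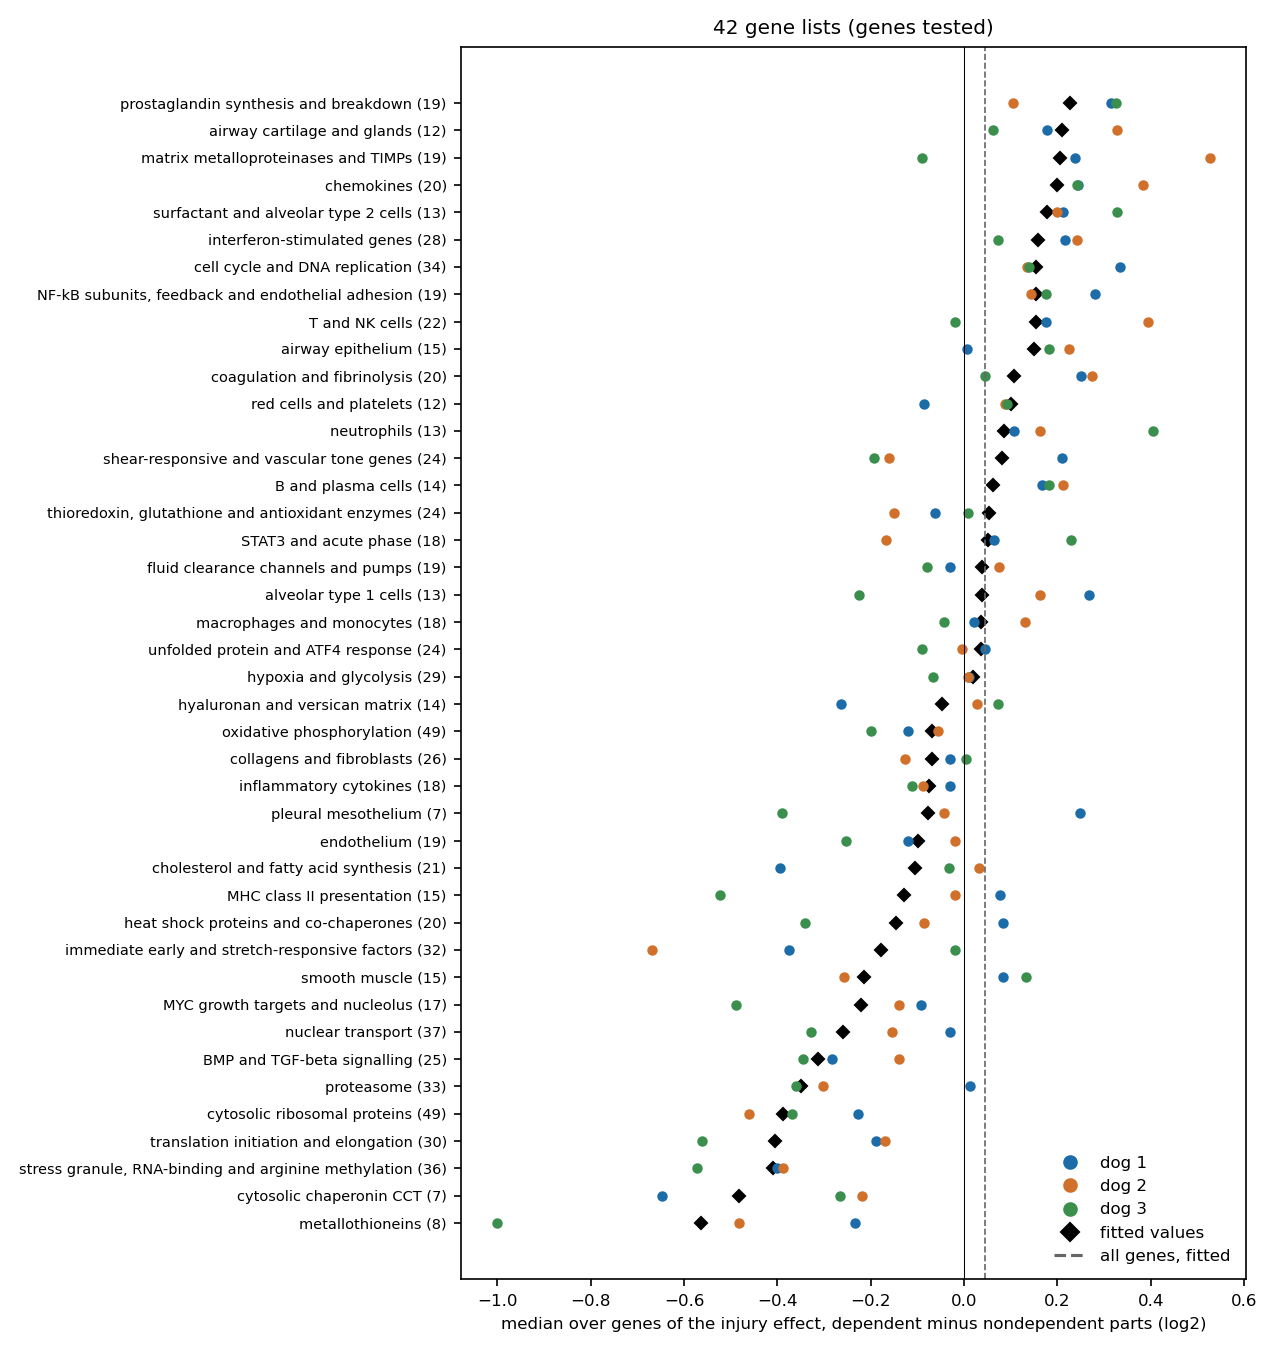
Medians of 42 gene lists (rows, with the number of genes tested in brackets) of the injury effect in dependent minus nondependent parts (log2, horizontal axis), with points for dogs 1 to 3, diamonds for the fitted values and a dashed line at the median of all genes, 0.04. Metallothioneins are lowest at -0.56 and prostaglandin genes highest at 0.23, and no row lies further from 0 than -0.56.

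Inflammatory genes lay on both sides of 0. Of 20 chemokines 5 were below 0, 0 of them in 3 of 3 dogs, and 5 were above 0 in 3 of 3 (25%, against 16.9% of all genes): CXCL11, which draws lymphocytes, at 1.41, CXCL3, which draws neutrophils, at 1.01, CXCL13 at 0.80, CCL22 at 0.66 and CXCL5 at 0.49. CXCL3 was Present on 8 arrays only. CXCL8, another signal to neutrophils, stood at -0.19 and its second probe set at 1.12. The chemokine median was 0.20, and 0.07 after quantile normalization. Of the 18 cytokines, the anti-inflammatory IL10 was at 0.82 with 0.34, 1.37 and 0.73 in dogs 1, 2 and 3, while TNF was at -0.15, IL6 at -0.20 and IL1B at 0.20, the last with dog values of -0.07, 0.00 and 0.66.

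In the NF-kB and endothelial adhesion group 7 of 19 were above 0 in 3 of 3 dogs, with the leukocyte adhesion molecules VCAM1 at 0.56 and SELE at 0.60, the SELE value resting on dog 1 at 1.63. NFKBIA, the inhibitor that NF-kB itself induces, stood on the other side at -0.57, with -0.03, -1.02 and -0.67 in dogs 1, 2 and 3. Of 28 interferon-stimulated genes 8 were above 0 in 3 of 3 dogs (28.6%, against 16.9% of all genes). They were led by GBP1, a guanylate-binding protein, at 1.16, with IFI44 at 0.59 and MX1, an antiviral GTPase, at 0.53. ISG15 at -0.80 and IFI6 at -0.73 were below 0 in 3 of 3. The interferon median was 0.16, and 0.08 after quantile normalization. Of 19 prostaglandin genes 16 were above 0, the highest list median at 0.23. PTGS2, the inducible cyclooxygenase, was at 0.67, but dog 1 at -0.29 differed in sign from dogs 2 and 3.

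Metalloproteinases cut the proteins of the matrix and are held in check by the TIMPs. Of 19 such enzymes and inhibitors 12 were above 0, where 54.9% of all genes were, and 5 in 3 of 3 dogs (26.3%, against 16.9%). An unadjusted p under 0.05 on the higher side, which 3.08% of all genes had, was reached by 4, and none passed after adjustment. They were MMP3 (stromelysin) at 1.49 ± 0.52 (SE), ADAMTS5, which cleaves aggrecan and versican, at 0.95, MMP11 at 0.77 and MMP14 at 0.74, of which MMP14 was below 0 in dog 1. MMP3 read 5.12, 5.67 and 6.73 in injured dependent parts against 4.87, 4.62 and 5.91 in control dependent parts, and 4.49, 5.55 and 5.60 in injured nondependent parts against 5.92, 6.02 and 6.06 in control nondependent parts. Injured minus control was above 0 in the dependent parts and below 0 in the nondependent parts in 3 of 3 dogs, and MMP3 lay in the dimmest quintile. The inhibitors TIMP1 at -0.58 and TIMP2 at -0.91 were below 0 in 3 of 3 dogs, and TIMP4 was at 0.21. Collagens and fibroblast genes had a median of -0.07, with fibronectin, FN1, at -0.78 and the dog values of FN1 at -0.04, -0.39 and -1.92. Of 5 other probe sets of FN1, 2 shared the sign, and they ran from -0.34 to 0.88.

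Several genes of the vascular wall and its BMP signalling stood below -0.9 in this contrast. The BMP and TGF-beta list had a median of -0.31, and -0.01 when all probe sets of a gene were averaged. Its lowest were ID1 and ID3, inhibitors of differentiation that BMP induces, at -1.17 ± 0.46 (SE) and -1.08 ± 0.42 (SE), both below 0 in 3 of 3 dogs. ID3 injured minus control was -1.05, -1.58 and -1.31 in dependent parts and -0.24, -0.10 and -0.36 in nondependent parts, which do not overlap. KLF4, a shear-responsive relative of KLF2, stood at -0.91 ± 0.29 (SE), with -0.81, -1.25 and -0.66 in dogs 1, 2 and 3 and a second probe set at -0.74. SOX18 of vessel and lymphatic identity stood at -1.59 ± 0.60 (SE), in the dimmest quintile and Present on 14 arrays. The cadherin of endothelial junctions, CDH5, stood at 0.63, and 12 of 19 endothelial genes were below 0, with a median of -0.10 and -0.12, -0.02 and -0.25 in dogs 1, 2 and 3. Of the 8 defining endothelial markers 6 were below 0, and their mean log2 signal ran from 6.75 to 7.69 over injured pieces and from 7.20 to 7.94 over control pieces. The mean of the 8 markers gave 0.09, -0.20 and -0.42 in dogs 1, 2 and 3 in this contrast. The part of endothelial content in the values of KLF2 and KLF4 was not tested.

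Alveolar epithelial genes lay on both sides of 0. Surfactant and type 2 cell genes had a median of 0.18, with 2 of 13 above 0 in 3 of 3 dogs, SFTPB, a surfactant protein, at 0.44, its 3 other probe sets running from -0.41 to 0.35, and LPCAT1, which makes surfactant lipid, at 0.46. SFTPC, another surfactant protein, was at -0.10 with 0.42, -0.02 and -0.71 in dogs 1, 2 and 3, and at 0.23 after quantile normalization, its 4 other probe sets running from -0.49 to 0.06. LAMP3 of lamellar bodies was at -0.52 and below 0 in 3 of 3 dogs. Type 1 cell genes spread widely: AGER, the receptor abundant on type 1 cells, was at -0.37 with 0.35, 0.16 and -1.62, and CLDN18, a tight-junction protein, at 0.04 with 0.68, 0.96 and -1.53. For both, dog 3 had the opposite sign of dogs 1 and 2. SEC14L3, a lipid-transfer protein, showed the same layout, at -0.61 with 0.69, 0.41 and -2.92, and stood at 0.35 without the 3 arrays of dog 3.

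Of 19 genes for clearing alveolar fluid, 4 were below 0 in 3 of 3 dogs and 4 above. SGK1, the kinase that keeps the epithelial sodium channel at the membrane, stood at -1.24 ± 0.40 (SE), with -1.75, -0.55 and -1.41 in dogs 1, 2 and 3. SGK1 injured minus control was -0.38, 0.00 and -0.67 in dependent parts and 1.38, 0.55 and 0.74 in nondependent parts, with no overlap. AQP3 stood at -0.85 and the sodium pump subunit ATP1B1 at -0.48. The channel subunit SCNN1A was on the other side at 0.73, as was AQP1, the water channel of capillaries, at 0.34. In the airways, MUC5B, a gel-forming mucin, stood at -1.12 ± 0.38 (SE) and FOXJ1, the master factor of motile cilia, at 1.01, Present on 9 arrays.

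Blood and immune cell genes had list medians from -0.13 for MHC class II presentation to 0.15 for T and NK cells. Of 13 neutrophil genes 4 were below 0, 0 of them in 3 of 3 dogs, and 3 were above 0 in 3 of 3 (23.1%, against 16.9% of all genes). The list ran from -0.60 to 0.81, with a median of 0.09. Its highest was S100A8, an abundant calcium-binding protein of neutrophils, while S100A9 was at -0.26. The macrophage median was 0.04, that of B and plasma cells 0.06, and that of red cells and platelets 0.10. HBB, the beta chain of haemoglobin, stood at -0.78 with 0.00, -0.43 and -1.91 in dogs 1, 2 and 3. In dog 3 the antigen-presenting gene HLA-DRA read -3.53, against 0.34 and -0.35 in dogs 1 and 2. Its fitted value of -1.18 became 0.12 without the 3 arrays that stood apart, where dog 3 has no value of its own. Cell cycle genes had 11 of 34 above 0 in 3 of 3 dogs (32.4%), among them CENPF of the kinetochore at 1.03, whose other probe set stood at -0.16, and the replication helicase subunit MCM4 at 1.51, the MCM4 value resting on 9 arrays with a Present call. The cell cycle median was 0.15.

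Probe sets called for injury over the mean of all 4 sites were then read in this contrast. These 42 rest on the same arrays but on a sum and not on this difference. Of the 27 higher in the injured lung, 25 were below 0, against 43.9% of all probe sets, and 17 in 3 of 3 dogs, against 11.8%, with a median of -0.56. As measured, their injury effect was thus smaller in dependent than in nondependent parts, with a median of 0.85 in dependent and 1.25 in nondependent parts. The median contrast of these 27 was -0.98 at the base and -0.11 at the apex, and no probe set passed for base minus apex. PRMT1, an arginine methyltransferase, had 0.88 in dependent and 1.54 in nondependent parts, and NAMPT of NAD synthesis 0.92 and 1.84. The contrast for NAMPT was -0.91, and 0.55 in its other probe set. The 2 above 0 were ZNF202 at 0.28 and SHMT2 of folate metabolism at 0.14. Of the 15 lower in the injured lung, 14 were also below 0, that is, further under the control lung in the dependent parts, with a median of -0.36 and 6 in 3 of 3 dogs. They included KLF4, PLCB4 at -1.11 and SMAD6, which restrains the BMP pathway, at -0.39, while HSPB2 was the 1 above 0 at 0.09. The median contrast of the 15 was -0.11 at the base and -0.66 at the apex. Without the 3 arrays of dog 3, 25 of the 27 and 12 of the 15 were below 0. None of the 42 passed in the contrast itself. In the brightest quintile were 18 of the 27 and 11 of the 15, and of all probe sets there 62.5% were below 0 and 24.6% in 3 of 3 dogs. Several of the 27 were metallothionein probe sets, which share sequence, so the 27 are not independent readings.

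**Figure D5:**
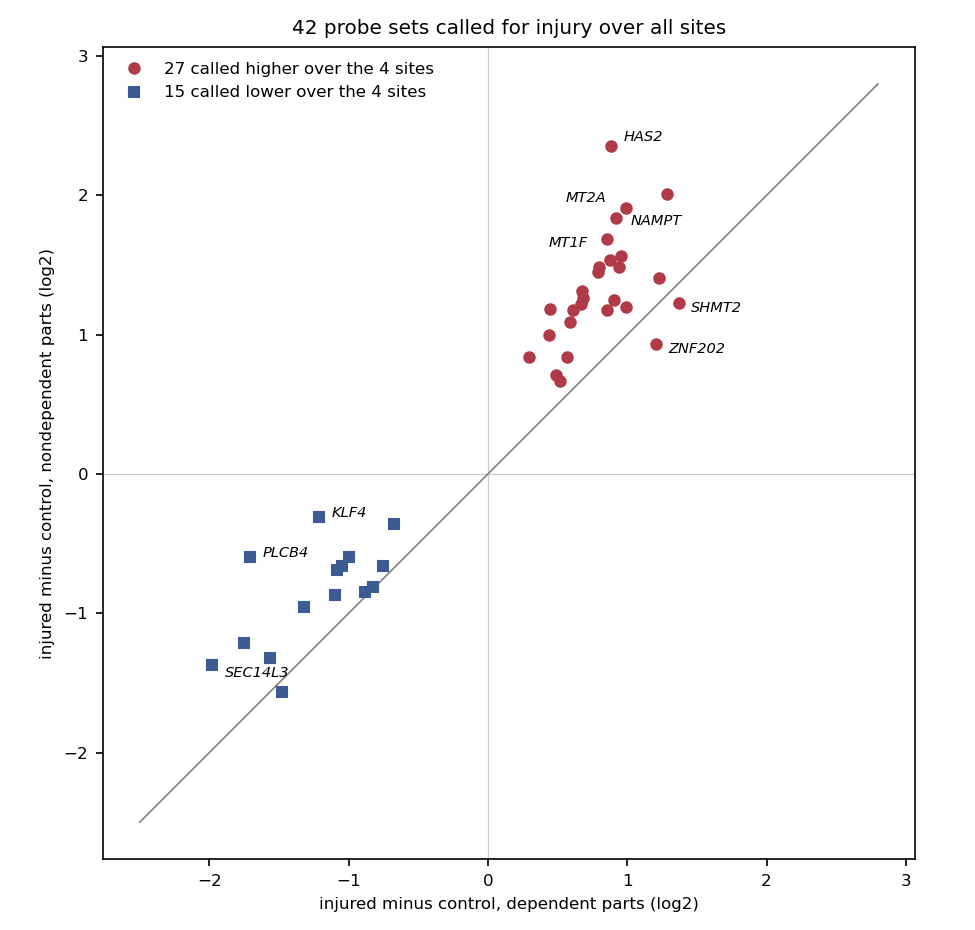
Injured minus control (log2) in dependent parts (horizontal axis) and in nondependent parts (vertical axis) for the 42 probe sets called for injury over the 4 sites, red circles for 27 called higher and blue squares for 15 called lower, with the line of equal effect. HAS2, at 0.88 in dependent and 2.36 in nondependent parts, lies furthest above the line, and points above it number 25 of 27 and 14 of 15.

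The components of the contrast were also tested on their own. In the dependent parts 0 of 20034 probe sets passed for injured against control lung (smallest limma adjusted p 0.1478, with 1759 at an unadjusted p under 0.05). In the nondependent parts 6 passed (0.0299%), all higher in the injured lung: MT2A by 1.91, MT1F by 1.69, PRMT1 by 1.54, MT1X by 1.45, CCT7 by 1.43 and a probe set that matches several genes by 1.18, with limma adjusted p from 0.0375 to 0.0457. In the dependent parts MT2A stood at 0.99, MT1F at 0.85, PRMT1 at 0.88, MT1X at 0.79, CCT7 at 0.06 and the probe set of several genes at 0.61. That these passed in nondependent and not in dependent parts does not show a difference, since the test of the difference is the contrast itself and 0 passed there. The 6 calls themselves rest on the setting: 0 probe sets passed without dog 1 or without dog 2, under quantile normalization, with no filter, with no replicate block, without the intensity trend or with the 3'/5' covariates. With values per dog, a form of the replicate block, 1 passed and it was none of the 6. Without dog 3, 8 passed, of which 2 were lower in the injured lung and MT2A was the only one of the 6. Without the 3 arrays that stood apart 10 passed, with MT2A, MT1F and MT1X among them but not PRMT1, CCT7 or the probe set of several genes.

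Base and apex were compared last. At the base alone 0 probe sets passed (smallest limma adjusted p 0.9812, 967 at an unadjusted p under 0.05). Genes with the smallest p there included IMPA2 at 3.11, FNDC4 at 2.02 and the cholesterol exporter ABCA1 at 1.47 above 0, and CCT7 at -2.11, TXN at -2.08, RNF113A at -2.05 and the calcium-binding S100A4 at -1.54 below 0. At the apex IMPA2 stood at 0.86, ABCA1 at -0.21, CCT7 at -0.64, TXN at 0.21 and S100A4 at -0.06. At the apex the smallest p among genes Present on at least 12 arrays belonged to TBX21, the factor of type 1 helper T cells, at 1.60, CENPF at 1.75 and GCLM at 2.51 above 0, and to ARHGEF12 at -1.21 and the sodium channel SCN2A at -1.58 below 0. Of 3 other probe sets of ARHGEF12, 1 was below 0 over both levels, and they ran from -0.80 to 1.71. Base minus apex was tested as a contrast of its own, and 0 probe sets passed (smallest limma adjusted p 0.9999, 623 at an unadjusted p under 0.05). No gene is therefore said to differ between the levels.

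At the apex 1 probe set passed (0.00499%): 1 of PITX1, a homeobox factor of hindlimb and pituitary development, at 4.07 with a limma adjusted p of 0.04314. PITX1 read 6.63, 6.11 and 6.49 at the injured dependent apex against 3.99, 4.65 and 2.41 at the control dependent apex, and 4.26, 5.38 and 3.54 at the injured nondependent apex against 5.37, 6.16 and 5.67 at the control nondependent apex. The injured pieces were higher in 3 of 3 dependent pairs and lower in 3 of 3 nondependent pairs. The signal was however among the dimmest, called Present on 7 of 24 arrays and on 0 of the 6 injured pieces of the apex. At the base the same probe set stood at -0.12, and the brighter probe set of PITX1 stood at -0.13 at the apex. Without dog 1, dog 2 or dog 3 it did not pass.

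Seen the other way, the contrast is the dependent minus nondependent difference in the injured lung less that in the control lung. Neither passed for any probe set: 0 in the injured lung (smallest limma adjusted p 0.9177, 1056 at an unadjusted p under 0.05) and 0 in the control lung (0.1182, 959). NR4A2 had -1.35 in the injured lung and 0.32 in the control lung, and MYC -1.37 and 0.36. KLF2 had -0.45 in the injured lung and 0.50 in the control lung. MT2A had -0.11 in the injured and 0.81 in the control lung, and POLG -0.29 and 0.88. IMPA2 had 0.73 in the injured lung and -1.25 in the control lung.

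Measures of the arrays themselves moved within this contrast too. The percentage of probe sets called Present gave the same difference of differences as -5.08, 3.72 and -9 points in dogs 1, 2 and 3. The 3' minus 5' signal of ACTB, a gauge of RNA integrity, gave -0.15, -0.36 and 1.61, and that of GAPDH -0.40, -0.01 and 0.13. In dog 3 both the ACTB gauge and the Present share were thus furthest from 0. With the 3' minus 5' signals of ACTB and GAPDH as covariates, the contrast again called 0 probe sets. Under these covariates the 6 calls for injury in the nondependent parts became 0. The part of the Present share was not tested.

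Leaving out the 3 arrays of dog 3 that stood apart moved some contrast values by over 1.5 times or across 0. As dog 3 then has no value of its own, these shifts also reflect the loss of that dog from the contrast. Below 0 but nearer to it then lay SRSF3 -0.42, HNRNPF -0.44, RPL9 -0.63, PRMT1 -0.31 (-0.66 with all arrays) and RNF113A -0.63 (-1.01 with all arrays). The same held for matrix genes, with TIMP1 -0.32, TIMP2 -0.29 and FN1 -0.37, for inflammatory genes, with ISG15 -0.21, IFI6 -0.31 and CXCL8 -0.06, and for GADD45A -0.71, NAMPT -0.53, HBB -0.50 and ATP1B1 -0.24. Above 0, nearer to 0 came POGZ 0.97, SFTPB 0.28, AQP1 0.16, CCL22 0.27, IFI44 0.35 and PRMT2 0.01. Further from 0 lay SHMT2 0.28, JUN -0.52, ATF3 -0.40, TNF -0.23, HSPB2 0.40, CCT6A 0.46 and CLDN18 0.82. The sign changed for SFTPC 0.05, AGER 0.13 and IL1B -0.06, beside HLA-DRA and SEC14L3. Among list medians without these arrays, that of the chaperonin was -0.16, of the proteasome -0.15, of nuclear transport -0.13, of the MYC targets -0.13, of chemokines 0.13, of the immediate early factors -0.36, and of collagens and fibroblast genes -0.15. The medians of endothelium at 0.01, MHC class II presentation at 0.09, neutrophils at -0.02 and B and plasma cells at -0.01 then lay on the other side of 0.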

How the data were processed

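Tissue RNA of 24 lung pieces was measured on Affymetrix arrays designed for human genes. The deposited values are signal intensity per probe set, scaled by the authors to a common target: the mean after trimming 2% at each end was 149.94 to 149.95 on every array. The arrays' own files hold the same signal intensity values (largest difference 0), with the authors' Present or Absent calls and detection p-values as deposited. The software and any probe masking were not given in the sources used here.

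Signals were taken as log2, after 3 signals of 0 were set to 0.1. Of 22283 probe sets, 68 controls and 11 without a call were left out, and 20034 that were Present on at least 6 arrays were tested. Symbols were taken from the annotation that GEO holds for the array, with 1 symbol for 17255 tested probe sets, several for 930 and none for 1849. Of 11226 symbols, 10035 (89.39%) also occur in the dog RefSeq gene table. A gene was read from its brightest probe set with 1 symbol. Few arrays per group limit the precision.

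A linear model with 1 term per group and the dog as a block was fitted with limma 3.58.1 in R 4.3.3 (lmFit, eBayes with an intensity trend, 14 residual degrees of freedom), with Benjamini-Hochberg adjustment over all tested probe sets and a threshold of 0.05. The code was tested on simulated data. The titles number the dogs, and the 8 pieces of a number are of 1 dog: with group means taken off, the nearest array was of the same dog for 24 of 24, and the median r was 0.236 within dogs and -0.136 between dogs. Header dog numbers that differ from the titles were not used.

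The contrast, its genes and the 42 gene lists were chosen with earlier results of these data known. Named by rule were 12 genes in each direction by the smallest p, with the same sign in 3 dogs and Present on at least 12 arrays, 5 in each direction for base, apex and base minus apex, the 2 with the smallest p of each list, and a set of known injury genes. Other genes were named after their values were seen. Alternatives were quantile normalization, median centring, no filter or 12 arrays Present, log2(signal + 16), no replicate block, a random block for the lung, values per dog, no intensity trend, array weights, 3'/5' covariates, the 3 injured arrays of dog 3 left out, each dog left out, and means over all probe sets of a gene.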

Additional observations from a re-analysis of the deposited data

Results flagged for a closer look

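A probe set of PITX1 stood at 4.07 on the log2 scale in dependent minus nondependent parts at the apex, where injured minus control was above 0 in dependent and below 0 in nondependent parts in 3 of 3 dogs, and passed by limma with an adjusted p of 0.04314. At the base the same probe set stood at -0.12, and the test of base minus apex gave -4.19 with an adjusted p of 0.9999. It was Present on 7 of 24 arrays. Over the alternatives its apex value ran from 2.60 to 4.99 and its adjusted p from 0.01605 to 0.9995.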

How the results depend on the processing

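The contrast itself called 0 probe sets under every alternative run, as did base minus apex and the position differences within the injured and within the control lung. The base count was 1, against 0, when values per dog were used, a form of the replicate block. The apex count of 1 was 0 under quantile normalization, no filter, 12 arrays Present, no replicate block, values per dog, array weights, the 3'/5' covariates and without the 3 injured arrays of dog 3, and leaving out a dog gave 0 to 0. The dependent count of 0 was 2 with array weights, and 0 to 1 when a dog was left out. The nondependent count of 6 was 0 under quantile normalization, no filter, no replicate block, no intensity trend and the covariates, 1 for values per dog (none of the 6), 10 without the 3 arrays of dog 3, 12 with log2(signal + 16) and 15 with array weights, and leaving out a dog gave 0 to 8. The cause was not tested. Of 2380 alternative values of 159 named gene results in the contrast, 18 moved by more than the spread over dogs and 33 changed sign, in 15 results that include SFTPC, AGER, CLDN18, SEC14L3, HLA-DRA, IL1B and CXCL8, and 0 were called. Of 672 alternative list medians 45 changed sign, in 19 lists. Both totals include alternatives that cannot change the fitted value of a gene. These are no filter, 12 arrays Present, no replicate block, a random block, values per dog and no intensity trend. The shares that moved are therefore no measure of stability. The median of all genes was 0.04, and -0.05 under median centring and 0.00 under quantile normalization, so list medians are read against it. With 3 dogs the median 95% half-width was 0.76 before adjustment, and IMPA2 at 1.99 ± 0.49 (SE) was not called.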

Other observations

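Genes of protein folding and of metabolism were also read in dependent minus nondependent parts, and 0 passed. Of 20 heat shock proteins 13 were below 0 and 5 in 3 of 3 dogs, with the co-chaperone DNAJA1 at -0.84, where its other probe set stood at 0.74, and HSPA4 at -0.75. Of 24 genes of the unfolded protein and ATF4 responses 11 were below 0. HSP90B1, the chaperone of the endoplasmic reticulum, stood at 0.66 with 1.37, 0.51 and 0.08 in dogs 1, 2 and 3 and another probe set at -0.30, and HERPUD1 of protein degradation there at -0.57. Of 49 oxidative phosphorylation genes 11 were below 0 in 3 of 3 dogs and 6 above, with COX5A of cytochrome oxidase at -1.41 ± 0.59 (SE) and ATP5F1A of ATP synthase at -1.15 ± 0.38 (SE). Of 29 hypoxia and glycolysis genes 3 were below 0 in 3 of 3 dogs and 3 above. HIF1A, the hypoxia-induced factor, stood at -0.50, VEGFA at -0.54 and the glycolytic ENO1 at 0.73, whose other probe sets stood at -0.45 and -0.16.

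Clotting and vascular tone genes gave a mixed reading. TFPI, the inhibitor of tissue factor, stood at 0.96 ± 0.36 (SE) with 0.27, 0.85 and 1.76 in dogs 1, 2 and 3 and was Present on 11 arrays, its 4 other probe sets running from -0.36 to 0.73, while thrombomodulin, THBD, stood at -0.47 and VWF at -0.46. Of 20 such genes 6 were above 0 in 3 of 3 dogs. ECE1, which activates endothelin, was at -0.97 and the endothelin receptor EDNRB at -0.66, both below 0 in 3 of 3 dogs. Among fibroblast genes COL15A1, a basement membrane collagen, stood at 1.31 with 0.68, 0.94 and 2.31, and the fibrillin FBN1 at -0.78 with -0.45, -1.12 and -0.76. MATN3, a cartilage matrix protein, had 1.99, with 3.72, 2.28 and -0.02, on 11 arrays with a Present call. In smooth muscle ACTG2 stood at -0.47 and ACTA2 at 0.40, with opposite signs in 3 of 3 dogs. Without the 3 arrays of dog 3 that stood apart, COL15A1 was at 0.87, EDNRB at -0.38, VWF at -0.23 and ATP5F1A at -0.74.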
